A study of Mus musculus with 24 samples.

Results

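The 8 genes described here encode the nuclear receptor PPAR alpha (Ppara) and 7 proteins of fatty acid oxidation or its control that are known targets of that receptor: Cpt1a, Cpt2, Pdk4, Ehhadh, Vnn1, Acadm and Hadha. They were chosen by gene symbol, and each of the 8 was represented by 1 probe set (8 of 28815 on the array, and 8 of the 19935 genes tested). Whole livers of adult male C57BL/6 mice, with no mutation or transgene named, were collected every 3 h, and the RNA of 3 livers for each of the 8 circadian times (CT00 to CT21) was hybridized singly to Mouse Gene 1.0 ST arrays of Affymetrix (24 in all). The labels give 3 biological replicates per time in one place and 4 harvested mice in another, and the arrays number 3. All mice had been entrained to alternating light and dim red light, were then moved to constant dim red light with food always available, and were sampled on the second cycle there, so no group had a light cycle and the labels name no fast and no drug. Circadian time is counted from the hour at which light used to come on (CT00). The span up to CT12 is called subjective day, the resting phase of mice, and the span after it subjective night, their phase of feeding and activity. Values are on a log2 scale with each gene set to a median of 0 across the 24 arrays, so they show how a gene moved but not how abundant it was, and no level is compared between genes. Folds hold only if the deposited log has base 2.

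PPAR alpha is a receptor for fatty acids and their derivatives that pairs with a retinoid X receptor and binds DNA at a pair of hormone receptor hexamers. In the liver it is best known for raising the genes of fatty acid oxidation and ketone body formation when fatty acids arrive, as they do during a fast. Long-chain fatty acids enter mitochondria through carnitine palmitoyltransferase 1 on the outer membrane (CPT1A in the liver), which is the regulated step, and carnitine palmitoyltransferase 2 (CPT2) inside. There ACADM starts the oxidation of medium-chain acyl groups, and HADHA, the alpha subunit of the mitochondrial trifunctional protein, carries out later steps on long chains. EHHADH is the bifunctional enzyme of peroxisomes, VNN1 is a pantetheinase that recycles vitamin B5 from the breakdown of coenzyme A, and PDK4 is a kinase that shuts down pyruvate dehydrogenase and so spares glucose.

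The spread of all probe sets on an array (interquartile range) ran from 0.0992 to 0.20. Deviations of all genes from the mean of their time were largest on CT15 replicates 1 and 2, CT09 replicate 3 and CT18 replicate 3, and the main counts are also given without these 4 arrays. As a check of the time labels, the clock genes Arntl, Nr1d1, Dbp and Per2 had called waves that peaked at 22.7, 7.29, 10.1 and 15.2 h. At CT00, however, the 3 livers were far apart for Dbp (-1.94, -0.64 and -0.045) and Nr1d1 (-1.71, -0.78 and -0.17). The levels of 6 hepatocyte markers could not be judged in centred values. Their mean relative value per array stayed between -0.091 and 0.097. Of the 6, 1 had a called 24 h wave: Hnf4a, with 1.21-fold and a peak at 12.9 h (limma, adjusted p = 0.00371). It was named after its values were seen. In RNA of a whole organ, fewer cells of a type and less RNA per cell cannot be told apart.

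A wave of 24 h was called for 5 of the 8 genes, and these fell into 2 nearly opposite phases. The series covers a single cycle, so the model set the period of 24 h and no repeat of the course was observed. The fitted peaks of Ppara, Cpt1a, Vnn1 and Acadm lay in the late subjective day, between 9.23 and 9.86 h, and Pdk4 peaked at 23.9 h, near subjective dawn. By the highest mean of a time, Ppara and Cpt1a were highest at CT09, Vnn1 at CT12 and Acadm at CT15, in the subjective night, where its mean was 0.11 as at CT12. The peak-to-trough fold was 2.71 for Pdk4, 1.96 for Vnn1, 1.95 for Cpt1a, 1.71 for Ppara and 1.16 for Acadm. Hadha, Cpt2 and Ehhadh, with fitted folds of 1.10, 1.08 and 1.08, did not pass. The test was limma's moderated F for the 24 h terms (cosine plus sine) taken jointly, adjusted by Benjamini-Hochberg over all 19935 genes, of which 13.8% were called at the threshold of 0.05. Called waves that peaked from CT06 to CT12 made up 4.57% of all genes, and 4 of the 8 genes were among them. The 8 were chosen with earlier results of these data known, so their shares are description only. Without the 4 arrays named above the count was 4 of 8, because Acadm was no longer called. A second F test, which compares the means of the 8 times and assumes no wave form, called 4 of the 8 (Ppara, Cpt1a, Pdk4 and Vnn1) against 10.9% of all genes.

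**Figure D1:**
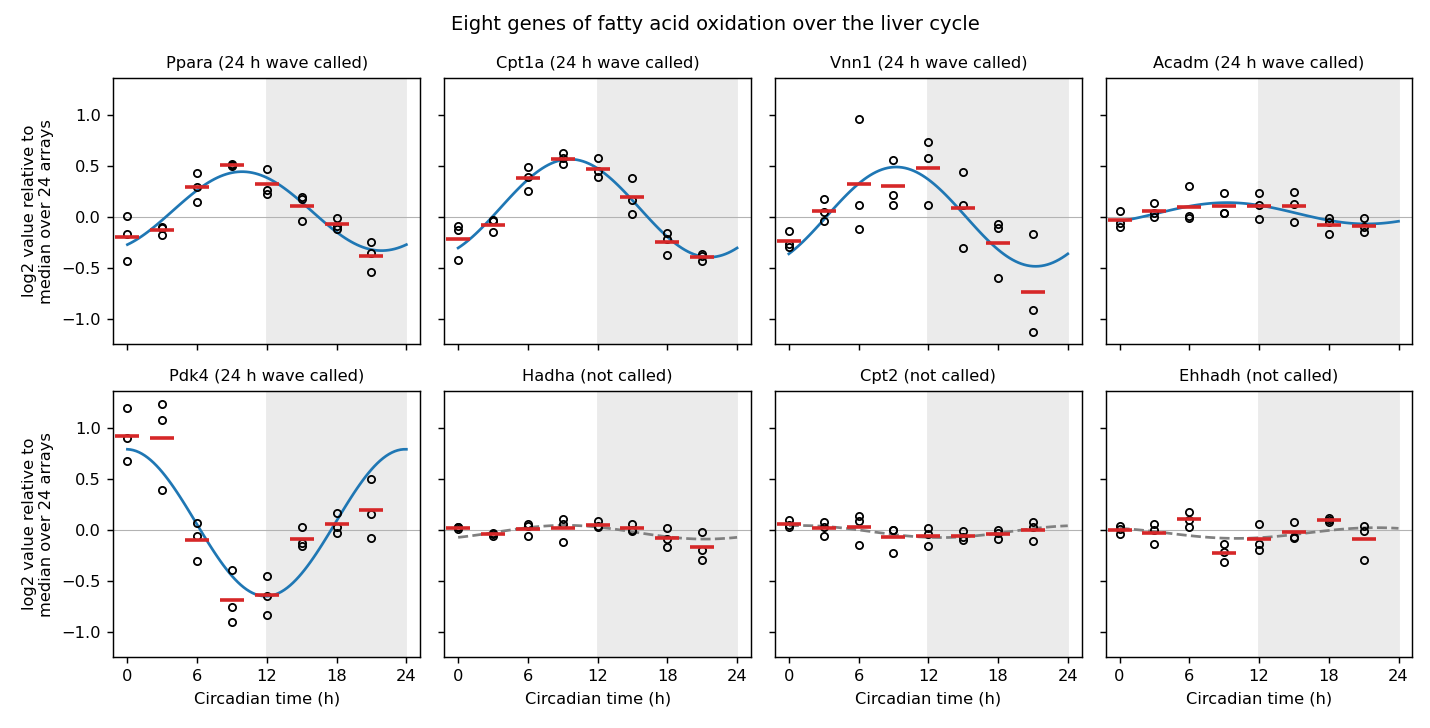
Values of the 8 genes in all 24 livers (open circles, log2 relative to the median of the gene over 24 arrays) against circadian time, with the mean of each time (red bars, n = 3) and the fitted 24 h curve (solid where called at an adjusted p under 0.05, dashed where not); grey marks the subjective night. Ppara, Cpt1a, Vnn1 and Acadm have fitted crests before CT12, Pdk4 is nearly opposite in phase, and Hadha, Cpt2 and Ehhadh stay close to 0.

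Ppara, the receptor gene, was highest in the afternoon of the subjective day. Its 3 livers gave 0.51, 0.51 and 0.49 at CT09, 0.14, 0.29 and 0.43 at CT06, and 0.23, 0.26 and 0.47 at CT12. In the night the values fell to 0.19, -0.039 and 0.17 at CT15, -0.088, -0.12 and -0.0082 at CT18, and -0.36, -0.25 and -0.54 at CT21. At CT00 they were -0.43, -0.17 and 0.0082, and at CT03 -0.10, -0.11 and -0.18. Thus the 3 arrays of CT09 lay above every other array of the series, and those of CT21 below every array except one of CT00. In the order of the means (CT09, CT12, CT06, CT15, CT18, CT03, CT00, CT21) only CT09 and CT12 did not overlap with each other among neighbours. The mean was 0.51 ± 0.011 (SD, n = 3) at CT09, the tightest time of this gene, and -0.38 ± 0.15 (SD, n = 3) at CT21. At CT00, where Dbp and Nr1d1 also differed between livers, the SD was widest, at 0.22 (n = 3). The liver with the lowest Ppara (replicate 1) was also the lowest in Dbp and Nr1d1. In Arntl the CT00 livers gave 0.82 (replicate 1), 0.76 and 0.70, and in Per2 -0.42 (replicate 1), -0.42 and -0.58. Whether that liver's clock phase has a part in the spread of Ppara was not tested. The fitted amplitude, which is the height of the crest over the mean of the curve, was 0.39 ± 0.037 (SE) with a peak at 9.86 h ± 0.36 (limma, adjusted p = 1.42e-07).

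Cpt1a, which encodes the regulated entry step, followed the same course with a larger swing. At CT09 its values were 0.62, 0.51 and 0.57, at CT12 0.45, 0.39 and 0.58, and at CT06 0.26, 0.39 and 0.49. They were lowest at CT21, with -0.38, -0.37 and -0.43, and at CT18, with -0.22, -0.37 and -0.16. At CT15 they were 0.38, 0.031 and 0.16, at CT00 -0.43, -0.13 and -0.093, and at CT03 -0.045, -0.031 and -0.15. Every array of CT06, CT09 and CT12 was above every array of CT18, CT21, CT00 and CT03. Between CT15, the fourth highest time, and CT03, the fifth, the arrays did not overlap, and the other neighbours in the order of the means did. The difference between the means of CT09 and CT21 was 0.96 (1.95-fold), with SDs of 0.054 and 0.035 (n = 3 each). The amplitude was 0.48 ± 0.032 (SE) and the peak at 9.62 h ± 0.25 (limma, adjusted p = 3.46e-10). By amplitude Cpt1a ranked 112th, and Ppara 216th, of all genes tested.

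Shown are stretches of 250 bases before the start of Ppara and Cpt1a, similar in phase, and of Pdk4, nearly opposite to both. They are from RefSeq, build GRCm38.p6, and read from 5′ to 3′ on the strand of the gene. Ppara lies on the plus strand at chr15:85735526-85735775, Cpt1a on the plus strand at chr19:3323051-3323300 and Pdk4 on the minus strand at chr6:5496279-5496528. Capitals mark 2 motifs on either strand: the hormone receptor hexamer AGGTCA and the GC box, which reads GGGCGG. A match on the opposite strand appears as the reverse complement of these letters.
Ppara: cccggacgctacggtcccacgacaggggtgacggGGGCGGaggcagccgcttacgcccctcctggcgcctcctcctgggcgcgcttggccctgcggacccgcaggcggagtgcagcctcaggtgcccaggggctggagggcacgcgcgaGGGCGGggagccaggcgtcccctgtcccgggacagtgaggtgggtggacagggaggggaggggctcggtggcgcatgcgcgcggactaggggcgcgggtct
Cpt1a: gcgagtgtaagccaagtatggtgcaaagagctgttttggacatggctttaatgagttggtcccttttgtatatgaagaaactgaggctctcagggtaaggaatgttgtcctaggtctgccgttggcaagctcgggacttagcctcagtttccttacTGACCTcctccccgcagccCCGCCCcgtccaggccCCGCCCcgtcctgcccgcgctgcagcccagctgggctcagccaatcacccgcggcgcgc
Pdk4: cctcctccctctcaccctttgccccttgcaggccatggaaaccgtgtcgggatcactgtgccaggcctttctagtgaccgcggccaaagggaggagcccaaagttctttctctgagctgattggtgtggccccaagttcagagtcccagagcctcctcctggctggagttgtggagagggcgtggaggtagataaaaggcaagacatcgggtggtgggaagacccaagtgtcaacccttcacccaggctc

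The Cpt1a stretch held 1 hexamer, on the minus strand at positions -94 to -89 from the start, and 2 GC boxes. The Ppara stretch, which is 76.4% G and C, held 2 GC boxes, and Pdk4 held neither motif. Of 32851 stretches of this length in the table, 14% held a hexamer and 32.7% a GC box. The E-box CACGTG, bound by CLOCK and BMAL1, was in 6.02% of all stretches and in none of the 7 of these genes that the table lists, and the same held for the D-box (0.819%). The ROR element core TNGGTCA, which can overlap a hexamer, was in 9.19% of all and in 1 of the 7, that of Ehhadh. A pair of hexamers 1 base apart, the form that PPAR alpha prefers and that contains the hexamer, was in 0.0335% of all stretches and in none of the 7. A looser form, with 2 letters free in the first hexamer and 1 in the second, was in 0.694% and in none of the 7. The Acadm stretch also held 1 hexamer but no GC box, though Acadm peaked in the day. GC boxes were also in the stretches of Cpt2, Ehhadh and Hadha, whose 24 h waves were not called. Motif matches describe these letters only, and sites farther away were not searched.

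The ratio of each gene to Ppara within an array was tested in the same way, which asks whether a target kept the wave of the receptor gene. Nearly all genes (99.7% of 19934) differed from Ppara in this test, because a flat gene differs from a gene with a wave, and 5 of the 7 targets did too. Cpt1a and Vnn1 were among the 53 genes that did not pass, which does not show that their waves equal that of Ppara. Each ratio holds the same Ppara values, and moderation draws the spread of each gene towards that of all ratios. For Cpt1a the ratio to Ppara had an amplitude of 0.098 ± 0.043 (SE, limma, adjusted p = 0.0888), with an approximate upper 95% bound of 0.18. Its mean was 0.15 ± 0.064 (SD, n = 3) at CT12, where all 3 livers were above 0, and -0.18 ± 0.068 (SD, n = 3) at CT18, where all 3 were below 0. This difference passed with the gene's own spread in place of the moderated one (adjusted p = 0.00624), with array weights (0.00699) and without CT21 replicate 3 (0.0259). The fitted peaks of Cpt1a and Ppara lay 0.249 h apart, less than either standard error. For Vnn1 the ratio had an amplitude of 0.12 ± 0.067 (SE, limma, adjusted p = 0.191, upper bound 0.25), and it passed without the 3 arrays of CT09 (0.00617). Acadm (0.28 ± 0.047, limma, adjusted p = 5.84e-07) and Hadha (0.32 ± 0.046, adjusted p = 1.74e-08) had smaller swings than Ppara. Their fitted peaks minus that of Ppara were -0.617 and -0.636 h.

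**Figure D2:**
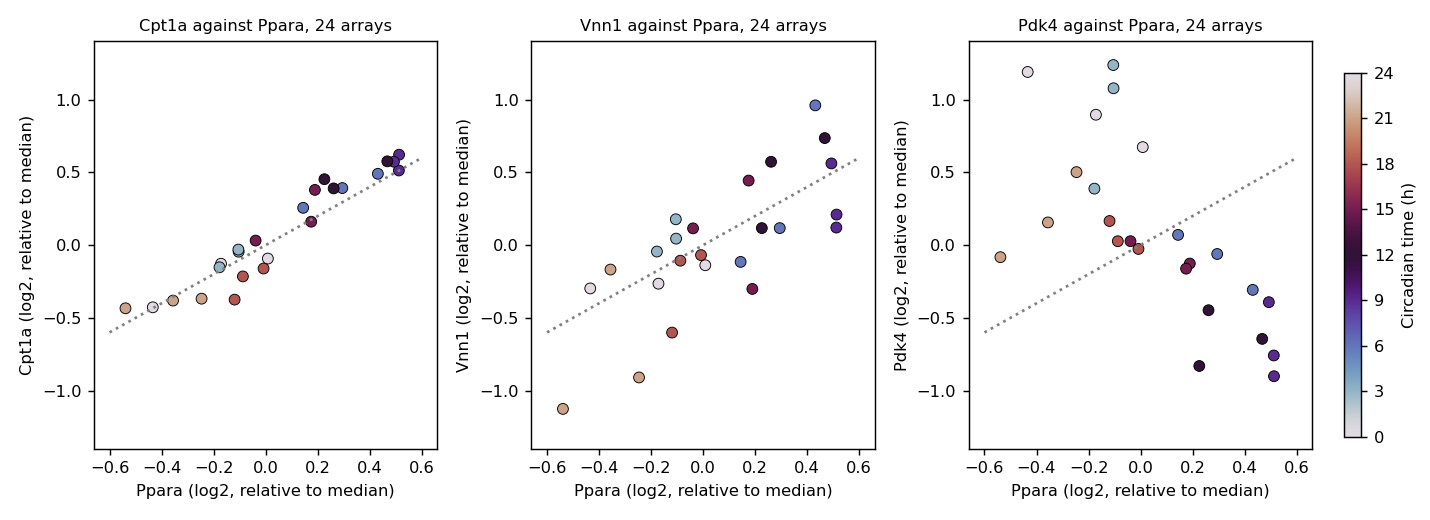
Values of Cpt1a, Vnn1 and Pdk4 against Ppara in the same 24 arrays (log2, gene median set to 0), coloured by circadian time; the dotted line marks equal values. Cpt1a follows the line, with the 3 arrays of CT12 above it and the 3 arrays of CT18 below it. Vnn1 scatters around the line with its lowest arrays at CT21. Pdk4 is lower where Ppara is higher, with the 3 arrays of CT21, where Ppara is lowest, at 0.16, 0.50 and -0.083 in Pdk4.

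Vnn1, the pantetheinase gene, had as large a swing as Cpt1a but varied far more between livers of the same time. It gave -0.12, 0.12 and 0.96 at CT06, 0.21, 0.12 and 0.56 at CT09, and 0.12, 0.57 and 0.74 at CT12. It was lowest at CT21, with -0.17, -0.91 and -1.13, and gave -0.11, -0.60 and -0.069 at CT18 and -0.30, 0.11 and 0.44 at CT15. At CT00 the values were -0.30, -0.27 and -0.14, and at CT03 0.044, 0.18 and -0.044. All 3 arrays of CT12 were above those of CT21, but 1 array of CT15 was as low as the lowest of CT00. Its SD within times, pooled over the cycle, was 0.349, larger than that of 99.6% of all genes, against 0.128 for Ppara and 0.116 for Cpt1a. The wave had an amplitude of 0.49 ± 0.090 (SE) and a peak at 9.23 h ± 0.70 (limma, adjusted p = 0.00129). The test over the 8 times also called it (adjusted p = 0.0314), but not without moderation (0.101), nor without CT00 replicate 2 (0.0505), CT12 replicate 2 (0.0635), CT12 replicate 3 (0.0622), CT21 replicate 2 (0.106) or CT21 replicate 3 (0.114).

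The fitted swings of the 4 remaining genes, Acadm, Hadha, Cpt2 and Ehhadh, were small, from 1.08-fold to 1.16-fold. Acadm, which encodes medium-chain acyl-CoA dehydrogenase, had means between 0.056 and 0.11 from CT03 to CT15 and of -0.077 ± 0.079 and -0.088 ± 0.068 (SD, n = 3) at CT18 and CT21. All 3 arrays of CT18 and of CT21 were below 0, while the livers of CT06 ran from -0.0095 to 0.30. Its amplitude was 0.10 ± 0.030 (SE) with a peak at 9.25 h, and limma's adjusted p of 0.0497 lay at the threshold. The call was lost without any 1 of 15 arrays: all 3 of CT21 (adjusted p = 0.0905, 0.0573 and 0.104) and of CT18 (0.0811, 0.0638 and 0.0714), CT00 replicates 1 and 2 (0.0828 and 0.0721), CT03 replicates 1 and 2 (0.0611 and 0.0612), CT06 replicate 3 (0.0730), CT09 replicate 3 (0.113), CT12 replicates 2 and 3 (0.0720 and 0.0936) and CT15 replicate 2 (0.0539). It was lost as well without the 3 arrays of any 1 time other than CT15 (up to 0.216). The test over the 8 times did not call it (limma, adjusted p = 0.335).

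Hadha, the trifunctional protein subunit, had its highest mean at CT12 (0.051 ± 0.032, SD, n = 3) and its lowest at CT21 (-0.17 ± 0.14, SD, n = 3). The 3 livers of CT21 gave -0.021, -0.20 and -0.30, all below those of CT12. Its amplitude was 0.067 ± 0.025 (SE, limma, adjusted p = 0.184), which puts an approximate upper 95% bound of 1.17 on its peak-to-trough fold. It passed in the 24 h test without the 3 arrays of CT00 (adjusted p = 0.0342), and in the test over the 8 times without CT21 replicate 1 (0.0438) and with array weights (0.0169).

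Cpt2, which encodes the inner-membrane partner of CPT1A, did not share the Cpt1a wave. Its means stayed between -0.074 ± 0.13 at CT09 and 0.058 ± 0.037 at CT00 (SD, n = 3), and times next to each other in the order of the means all overlapped. Single arrays ran from -0.22 to 0.14. The amplitude was 0.059 ± 0.024 (SE, limma, adjusted p = 0.270), with an upper bound of 1.16 on the fold, and its ratio to Ppara had an amplitude of 0.43 ± 0.046 (adjusted p = 2.67e-11).

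Ehhadh, the peroxisomal bifunctional enzyme gene, was lowest at CT09 (-0.14, -0.32 and -0.21), the time at which Ppara was highest. The next lowest means were at CT12 (-0.092 ± 0.13) and CT21 (-0.088 ± 0.18, with 1 liver at -0.30), and the highest were at CT06 (0.10 ± 0.074) and CT18 (0.099 ± 0.019, SD, n = 3 each). The 3 arrays of CT09 were below all arrays of CT00, CT03, CT06, CT15 and CT18, and overlapped with those of CT12 and CT21. The margin to CT03 was narrow, with the highest array of CT09 at -0.143 and the lowest of CT03 at -0.138. Its 24 h wave did not pass (amplitude 0.052 ± 0.037, limma, adjusted p = 0.695), nor did a component of 12 h (0.098 ± 0.032, limma, adjusted p = 0.225). The test over the 8 times gave an adjusted p of 0.0881, and it passed without CT12 replicate 3 (0.0480) or CT21 replicate 3 (0.0357).

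Separation of the highest from the lowest time is not unusual in a series of 8 times. The 3 arrays of the highest time were all above those of the lowest in 7 of the 8 genes, all but Acadm, and in 63.1% of all genes.

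Pdk4, the gene of the pyruvate dehydrogenase kinase, had the largest swing of the 8 and a phase nearly opposite to that of Ppara. It was highest around subjective dawn, with 1.19, 0.90 and 0.67 at CT00 and 1.08, 1.24 and 0.39 at CT03. By CT06 it was at 0.070, -0.061 and -0.31, and it reached its lowest values at CT09 (-0.90, -0.76 and -0.39) and CT12 (-0.83, -0.45 and -0.64). Its values were then -0.13, 0.027 and -0.16 at CT15, 0.027, 0.17 and -0.027 at CT18, and 0.16, 0.50 and -0.083 at CT21. The mean rose at each of these times, but the arrays of CT15 and CT18 overlapped, as did those of CT18 and CT21. All 6 arrays of CT09 and CT12 were below all others, and 5 of the 6 arrays of CT00 and CT03 were above all others, the exception being CT03 replicate 3. The mean was 0.92 ± 0.26 at CT00 and -0.68 ± 0.26 at CT09 (SD, n = 3 each), a difference of 1.60, or 3.04-fold. The amplitude was 0.72 ± 0.092 (SE) with a peak at 23.9 h ± 0.49 (limma, adjusted p = 1.35e-05), and by amplitude Pdk4 ranked 32nd of all genes. Relative to Ppara in the same array Pdk4 swung by 4.41-fold (amplitude of the ratio 1.07 ± 0.077, SE, limma, adjusted p = 1.9e-17). The peak of Pdk4 minus that of Ppara was -9.96 h, and the spread of Pdk4 within times (SD 0.255) was above that of 98.9% of genes.

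The means of Pdk4 went from 0.90 at CT03 to -0.68 at CT09, and from -0.64 at CT12 through -0.087 at CT15 and 0.055 at CT18 to 0.19 at CT21. A component of 12 h, added to the 24 h terms and tested by limma's moderated F, was called for Pdk4 (amplitude 0.34 ± 0.065, SE, adjusted p = 0.0353) and for 1 of the 8 genes in all, against 0.577% of all genes. At an unadjusted p under 0.05 the count was 2 of 8 (Pdk4 and Ehhadh), against 16.7% of all genes. The call was lost without moderation (adjusted p = 0.0910), with quantile normalization (0.0786) and without the 4 arrays named above (0.0723). It was also lost without any 1 of 9 arrays: CT00 replicate 2 (0.0559), CT03 replicates 1 and 2 (0.0791 and 0.0702), CT09 replicates 1 and 2 (0.0719 and 0.0632), CT15 replicates 2 and 3 (0.0898 and 0.0598), and CT21 replicates 1 and 3 (0.0541 and 0.0948). The 24 h call of Pdk4 held in each of these fits.

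Among the 8 genes, the closest pair over the 24 arrays was Ppara and Cpt1a (Pearson r = 0.96, Spearman rho 0.95). Pdk4 ran against both (r = -0.71 with Ppara and -0.69 with Cpt1a), and Cpt2 and Ehhadh had r of -0.18 and -0.15 with Ppara. These are descriptions over arrays that share their times. With the mean of each time taken away, so that only differences between livers of the same time were left, Ppara and Cpt1a still had r = 0.83, and Cpt1a was second of 19934 genes in likeness to Ppara. Pdk4 had r = -0.16 with Ppara on that footing, and Cpt2 and Ehhadh had 0.35 and 0.36. Within times Vnn1 was closest to Hadha (r = 0.76), Cpt2 (0.67) and Acadm (0.65) among the 8. Genes of one array share its RNA and its processing, and the part of these in the likeness within times was not tested.

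Over all genes, those most like each called gene were found by Pearson correlation over the 24 arrays. For Ppara they were Cpt1a (r = 0.96), the clock output factor gene Dbp (0.94) and the REV-ERB beta gene Nr1d2 (0.93). For Cpt1a they were the sterol exporter gene Abcg8 (0.96), the glutamine transporter gene Slc38a3 (0.96) and Ppara. The genes most like Pdk4 were the tubulin gene Tubb2a (0.93), Pxdc1 (0.90) and the choline kinase gene Chka (0.89), which peaked at 23.4, 0.294 and 23.0 h. Vnn1 was most like Siae (0.90), Pgm1 (0.88) and Nr2f2 (0.87), and Acadm was most like Pcmtd1 (0.89), the ketone body enzyme gene Bdh1 (0.88) and Nbr1 (0.87).

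The rest of the pathway was taken from 7 lists with 101 genes, of which 92 were tested. The other 9 were not analysed here. Of the 92, 37 (40.2%) had a called 24 h wave, 28 with a peak in the subjective day and 9 in the night. Over all genes 13.8% were called (2758), 1598 with a day peak and 1160 with a night peak. The lists were chosen with earlier results of these data known, so the shares are description only. The median fold was 1.15 over the 92 and 1.07 over all genes. Without the 4 arrays named above 32 of the 92 were called. Fitted swings of the other genes ranged as widely as those of the 8, and the plot of peak times shows where the 8 lie among them.

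**Figure D3:**
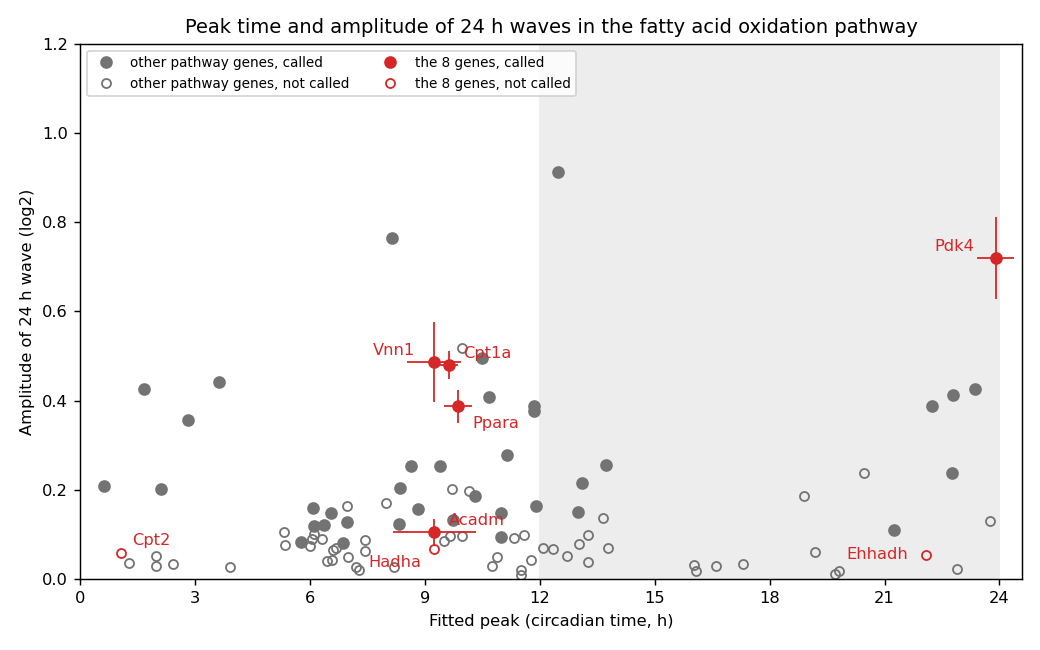
Amplitude of the fitted 24 h wave (log2) against its peak time for the 8 genes (red, with SE bars where called) and 92 other genes of the pathway (grey); filled points were called at an adjusted p under 0.05, and grey shading marks the subjective night. Ppara, Cpt1a and Vnn1 stand together at 9 to 10 h with amplitudes of 0.39 to 0.49, and Pdk4 stands apart at 23.9 h with 0.72.

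Among partners and coregulators of PPAR alpha, 7 of 16 were called. The sister receptor gene Ppard peaked at 23.4 h with 1.80-fold (limma, adjusted p = 1.06e-05), a phase nearly opposite to that of Ppara. Lpin1, which encodes lipin 1, a phosphatidate phosphatase and coactivator of PPAR alpha, had the largest swing of all 92, 3.54-fold at 12.5 h (adjusted p = 1.28e-05). The coactivator gene Ppargc1b peaked at 8.35 h (1.32-fold, adjusted p = 0.000582). Rxra, the gene of the partner receptor, peaked at 8.83 h with 1.24-fold (adjusted p = 0.00604), and lost its call without the 3 arrays of CT09 (0.0553). Ppargc1a, encoding PGC-1 alpha, had a fitted fold of 1.14 and did not pass (adjusted p = 0.410).

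Of 11 genes of fatty acid uptake, activation and mitochondrial entry, 5 were called. Acsl5, an acyl-CoA synthetase gene, peaked at 2.10 h (1.32-fold, limma, adjusted p = 4.61e-05), the transport protein gene Slc27a2 at 9.72 h (adjusted p = 9.83e-05) and the carnitine transporter gene Slc22a5 at 11.1 h (1.47-fold, adjusted p = 0.000306). Slc25a20, the carnitine carrier that works between CPT1A and CPT2, did not pass (adjusted p = 0.328). Of the 16 mitochondrial beta-oxidation genes 4 were called, all with a day peak. Eci2, an enoyl-CoA isomerase gene, swung by 1.76-fold around 10.7 h (limma, adjusted p = 3.59e-06). Acadl, the long-chain dehydrogenase gene, had 1.23-fold (adjusted p = 0.0239) and Decr1, a dienoyl-CoA reductase gene, 1.14-fold (0.0236), both around 10.97 h. Acadl lost the call without CT09 replicate 3 (0.0513) or CT12 replicates 2 or 3 (0.0526 and 0.0595), and without the 4 arrays named above (0.102). It was also lost without all arrays of CT03 (0.0685), CT12 (0.259), CT15 (0.0608), CT18 (0.0510) or CT21 (0.146). Decr1 lost it without CT12 replicates 2 or 3 (0.0587 and 0.0643) or CT21 replicate 3 (0.0507), or without all arrays of CT03 (0.0654), CT12 (0.20) or CT21 (0.129). Hadhb, the partner subunit of Hadha, had 1.21-fold (adjusted p = 0.548), and Acadvl and Acads had adjusted p of 0.527 and 0.902.

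In peroxisomal and omega oxidation 9 of 19 genes were called, 8 with a day peak. Hacl1, a lyase of peroxisomal alpha-oxidation, peaked at 22.8 h (1.77-fold, limma, adjusted p = 5.21e-09), Crot, the carnitine octanoyltransferase gene, at 3.61 h (1.84-fold, adjusted p = 1.18e-08), and Acox2, an oxidase of bile acid precursors, at 0.607 h (1.34-fold, adjusted p = 2.28e-05). The microsomal omega-hydroxylase gene Cyp4a14 had 2.05-fold at 9.96 h and did not pass (limma, adjusted p = 0.338), with a spread within times above that of 99.98% of genes. It passed without CT09 replicate 2 (adjusted p = 0.0104) and without the 3 arrays of CT09 (0.00335). Its neighbour in function Cyp4a10 had 1.32-fold (0.505) and passed without CT09 (0.0366).

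Ketone body genes numbered 4, of which 2 were called: the monocarboxylate transporter gene Slc16a1 at 22.8 h (1.39-fold, limma, adjusted p = 8.18e-05) and Bdh1 at 8.63 h (1.42-fold, adjusted p = 0.000624). Fgf21, the fasting hormone gene, had 1.13-fold and did not pass (adjusted p = 0.165), but passed without CT15 replicate 1 (0.0386). Of 15 other known PPAR alpha targets 7 were called, 6 with a day peak. Plin2, a lipid droplet coat gene, peaked at 2.80 h (1.64-fold, limma, adjusted p = 5.05e-05), Cyp8b1, a bile acid enzyme gene, at 1.68 h (1.80-fold, adjusted p = 0.000308) and the peroxisomal thioesterase gene Acot3 at 11.8 h (1.71-fold, adjusted p = 0.000557). Vnn3, the paralog of Vnn1, had 1.03-fold (adjusted p = 0.970). In the list of pyruvate dehydrogenase and its control, 3 of 11 were called: the subunit genes Pdhx at 12.99 h (1.23-fold, limma, adjusted p = 0.000448) and Pdhb at 13.7 h (1.43-fold, 0.00562), and the phosphatase gene Pdp2 at 6.97 h (1.19-fold, 0.0142). Pdhb lost its call without CT12 (0.0695), and Pdp2 without CT06 (0.0576) or CT18 (0.0598). The other kinase genes Pdk1, Pdk2 and Pdk3 had folds of 1.09, 1.13 and 1.01 and did not pass (adjusted p = 0.773, 0.399 and 0.979), so Pdk4 was the 1 kinase gene of 4 with a called wave. Pdk2 was called in the test over the 8 times (limma, adjusted p = 0.0298) and was highest at CT06.

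**Figure D4:**
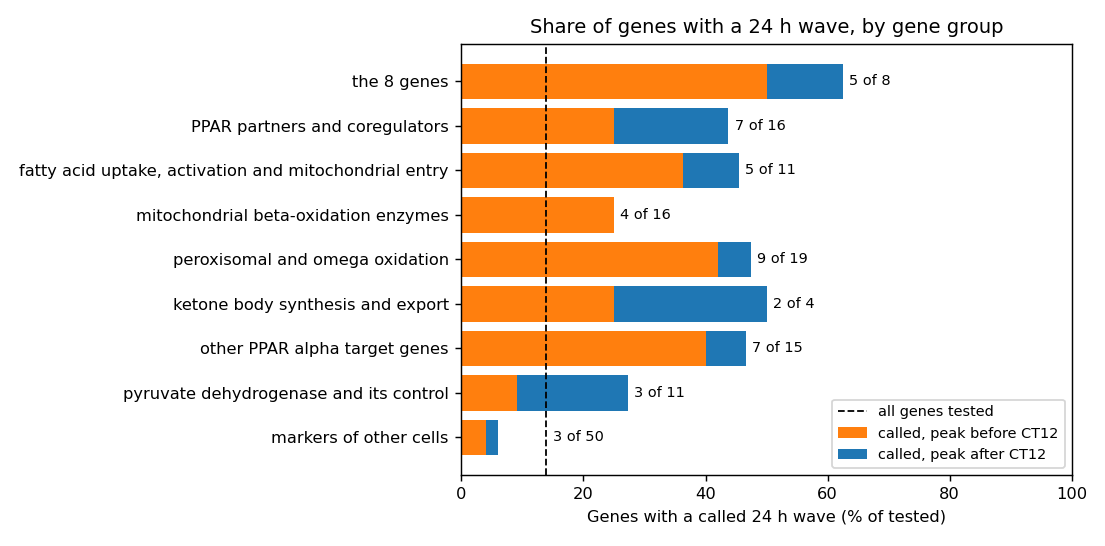
Share of tested genes with a called 24 h wave in the 8 genes, in 7 lists of other pathway genes and among markers of other cell types, with the peak before CT12 (orange) or after it (blue); the numbers are called of tested, and the dashed line is the share over all genes, 13.8%. The 8 genes have 5 called, the lists from 25% to 50%, and the markers of other cells 6%. The 8 genes and the lists were chosen with earlier results of these data known, so the shares are description only.

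Markers of 10 other cell types, which a whole liver can hold, were called in 3 of 50 tested (6%). The called ones were Car3 of the adipocyte list, Pdgfrb of the stellate cell list and Sox9 of the bile duct list, named after their values were seen. As a single gene, Pdk4 ran from -0.90 to 1.24 over the 24 arrays. The ranges that follow are of means over lists of genes. Averaging narrows such ranges, so their widths cannot be set directly against that of Pdk4. The mean of the skeletal muscle list, a tissue in which Pdk4 is abundant, ran from -0.11 to 0.091 and the adipocyte mean from -0.10 to 0.11. The bile duct mean ran from -0.20 to 0.22, with its highest array at CT00 replicate 1, and the endothelial mean from -0.27 to 0.24, with its lowest array at CT09 replicate 1. In the bile duct list, of which 5 genes were tested, Sox9, Krt19 and Cldn4 had fitted peaks at 22.7, 23.0 and 21.7 h. These lay near that of Pdk4, with limma adjusted p of 0.000687, 0.153 and 0.209. Of the 5 tested, 1 was called (20%), against 13.8% of all genes. The peaks of the other tested genes of this list are not given here, so no phase is stated for the list. In the endothelial list Kdr, Cdh5 and Tek had their highest mean at CT00 and their lowest at CT09, as Pdk4 did. They did not pass (limma, adjusted p = 0.287, 0.393 and 0.404). The rest of the 6 tested differed. Lyve1 was highest at CT15 and lowest at CT12, Stab2 was highest at CT03 and lowest at CT09, and Pecam1 was highest at CT00 and lowest at CT18. Lyve1 was called in the test over the 8 times (limma, adjusted p = 0.0224). Sox9, Krt19, Cldn4, Kdr, Cdh5 and Tek were also named after their values were seen. Kupffer cell markers had their lowest array mean at CT09 replicate 3 (-0.57) and their highest at CT15 replicate 3 (0.34), and 0 of the 6 were called by limma (0 also at an unadjusted p under 0.05). The part of cell mixture in the waves was not tested beyond these values.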

How the data were processed

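Per the labels' protocols, each array received biotin-labelled material from 1 liver. The authors deposited signed log values, taken here as log2 and centred per probe set on the median of the 24 arrays (each probe set had a median of 0 to within 5e-07). For the log base, background correction and normalization between arrays: not given in the sources used here. Gene symbols were read from GEO's platform annotation and updated by Entrez identifier. Of 28815 probe sets, 21780 had 1 symbol, 1605 several and 5430 were unlisted. Probe sets of a gene were averaged, which gave 19935 genes. Each of the 8 genes had 1 probe set.

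Tests used limma 3.58.1 in R 4.3.3 on all genes, with Benjamini-Hochberg adjustment and a threshold of 0.05. They were also run on simulated data with independent noise for each gene and array and, for ratios, a Ppara without noise. Deviations that genes of an array share were thus not covered by the simulation. Standard errors of amplitudes and peaks are by the delta method, and bounds are approximate. Centring allows no filter on dim genes, and a filter on flat genes was an alternative. Arrays carry no depth, and their number sets the precision. The members and lists were chosen with earlier results of these data known. Genes named outside the 8 are the 3 smallest p of each list in the 24 h fit, fixed paralogs and partners, and the 3 most correlated genes. Scan dates and other batches were not analysed here.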

Additional observations from a re-analysis of the deposited data

How the results depend on the processing

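The alternatives were no moderation, array weights, quantile normalization, centring of arrays, the probe set of largest variance, a filter on flat genes, the replicate block, leaving out each array, each time (24 h tests) or the 4 farthest arrays, and 12 h terms in the 24 h model. Counts of the other pathway genes were added after seeing the data. In 1446 comparisons over the 8 genes 1380 gave the same call or a value within its error, 45 lost a call, 9 gained one, 12 peak times moved (by the highest mean, Vnn1 to 12 h and Acadm to 15 h) and 0 reversed. The 24 h calls of Ppara, Cpt1a, Pdk4 and Vnn1 held in every alternative run. That of Acadm was lost as well without moderation (adjusted p = 0.0677), with quantile normalization (0.0556), with centred arrays (0.0503), with the probe set of largest variance (0.0511) and without the 4 farthest arrays (0.162). Leaving out 1 array gave 4 to 5 of the 8 genes and 2452 to 2874 of all genes with a 24 h wave.

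The count of genes that differed over the 8 times rose from 2167 to 4900 with array weights. The 12 h component was called for 115 genes, for 50 without moderation, 64 with quantile normalization and 184 with the filter on flat genes, and for 47 to 188 when 1 array was left out. Among the 8 genes this count fell from 1 to 0 without moderation, with quantile normalization, without the 4 farthest arrays and without some single arrays (0 to 1). With the filter on flat genes, which left 9966 genes and 5 of the 7 targets, 9901 genes and 3 of the targets differed from Ppara, as fewer were tested.

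Replicate numbers are shared by all times. Deviations of same-numbered arrays correlated from -0.40 to 0.50, with 45 of 84 pairs over 0.1. The mean correlation was 0.094 for arrays of the same number and -0.046 for arrays of other numbers. By mean correlation 15 of 24 arrays were closest to their own number. The main fits did not use the numbers, and whether a number marks a shared batch was not tested. With the replicate block the number of genes rhythmic over 24 h was 2984, 2701 of them among the 2758, and 5 of the 8 were called, and the adjusted p of Acadm was 0.00631. Signal over background cannot be read from centred values, so its limit on these results is unknown.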
